A study of Homo sapiens with 14 samples.

Results

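The miR-23, miR-27 and miR-24 clusters are 2 groups of neighbouring microRNA (miRNA) hairpins, one on chromosome 19 and one on chromosome 9. The members described are the 10 mature miRNAs of these hairpins listed by name, of 2588 mature miRNAs counted in the series. They are hsa-miR-23a-5p, hsa-miR-23a-3p, hsa-miR-27a-5p, hsa-miR-27a-3p, hsa-miR-24-2-5p, hsa-miR-24-3p, hsa-miR-23b-5p, hsa-miR-23b-3p, hsa-miR-27b-5p and hsa-miR-27b-3p, written without the prefix hsa below. All were counted in the human cell line A549, which derives from a lung cancer, with 2 assays for RNA that carries N7-methylguanosine (m7G). In BoRed-seq, decapped total RNA was reduced with sodium borohydride and brought to low pH, which leaves a site without a base where m7G stood, and a biotin probe and streptavidin beads recovered the RNA (Red, n = 2). The control libraries went through the same steps with borohydride already quenched in acid (Ctrl, n = 2). In m7G-RIP-seq, an antibody against m7G was used on heat-denatured RNA (IP, n = 5), with the RNA before immunoprecipitation as control (Input, n = 5). The tables held miRNAs alone, so the cell line was not checked against marker genes. All groups came from this 1 cell line, and the labels do not say whether replicates were separate cultures, so the p-values measure the spread between these libraries, which may be technical.

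A miRNA hairpin is cut by Drosha and Dicer into a short duplex of a 5p and a 3p arm, of which one arm is usually kept by an Argonaute protein and guides it to messenger RNAs, while the other is mostly degraded. Target choice rests largely on the seed, the bases from 2 to 8 of the mature miRNA. The miR-23, miR-27 and miR-24 hairpins of a cluster are made from a common primary transcript, and the 3p arms are the usual guides. They are known from work on blood vessel growth, fat cell differentiation and muscle. Separate enzymes put m7G on the start of a messenger RNA, where it helps translation begin, and into the body of many transfer RNAs.

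On GRCh38.p14, the cluster of the a paralogs lies on the minus strand of chromosome 19, from 13836287 to 13836659, 373 bases that hold MIR24-2, MIR27A and MIR23A. GENCODE places all 3 of these hairpins in an exon of MIR23AHG, a long non-coding RNA of the same strand. The cluster of the b paralogs lies on the plus strand of chromosome 9, from 95085208 to 95086088, 881 bases that hold MIR23B, MIR27B and MIR24-1. MIR23B and MIR27B lie in an intron of AOPEP, a protein-coding gene of the same strand that encodes an aminopeptidase, and MIR24-1 overlaps an annotated exon of AOPEP. Both MIR24-1 and MIR24-2 give the same miR-24-3p, so its reads cannot be assigned to a cluster. The mature sequences, from RefSeq on GRCh38.p14, are shown because the arms and the paralogs compared below differ in them. All 10 members matched. Capitals mark the seed, each sequence runs 5′ to 3′, and the chromosome, start, end and strand follow in this order of members.
miR-23a-5p: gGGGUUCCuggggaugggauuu
miR-23b-5p: uGGGUUCCuggcaugcugauuu
miR-27a-5p: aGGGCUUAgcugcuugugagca
miR-27b-5p: aGAGCUUAgcugauuggugaac
miR-24-2-5p: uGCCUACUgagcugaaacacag
miR-23a-3p: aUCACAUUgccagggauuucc
miR-23b-3p: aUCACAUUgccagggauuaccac
miR-27a-3p: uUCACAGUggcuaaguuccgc
miR-27b-3p: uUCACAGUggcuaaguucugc
miR-24-3p: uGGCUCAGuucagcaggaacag
The 5p arms lie at chr19:13836630-13836651 (minus), chr9:95085227-95085248 (plus), chr19:13836487-13836508 (minus), chr9:95085463-95085484 (plus) and chr19:13836326-13836347 (minus). The 3p arms of miR-23a, miR-23b, miR-27a and miR-27b lie at chr19:13836595-13836615 (minus), chr9:95085265-95085287 (plus), chr19:13836447-13836467 (minus) and chr9:95085505-95085525 (plus). miR-24-3p lies at chr19:13836289-13836310 (minus) and chr9:95086064-95086085 (plus).

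The 3p arms of each paralog pair share their seed and nearly all other bases. miR-23a-3p and miR-23b-3p differed at 1 of the 21 positions compared from the 5′ end (U19A, miR-23a-3p first), and miR-23b-3p is longer by 2 bases. miR-27a-3p and miR-27b-3p differed at 1 of 21 (C19U). The 5p arms had diverged more. miR-23a-5p and miR-23b-5p shared the seed GGGUUCC but differed at 7 of 22 positions (G1U, G12C, G13A, A14U, U15G, G16C and G17U). miR-27a-5p and miR-27b-5p differed at 8 of 22, with a difference inside the seed (G3A, C13A, U17G, G18U, A19G, G20A, C21A and A22C). The same 5p sequences are repeated here with capitals on every run of 2 or more G, since G content differed between the arms.
miR-23a-5p: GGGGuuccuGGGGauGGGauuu
miR-23b-5p: uGGGuuccuGGcaugcugauuu
miR-27a-5p: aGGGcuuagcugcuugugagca
miR-27b-5p: agagcuuagcugauuGGugaac
miR-24-2-5p: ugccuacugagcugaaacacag
miR-23a-5p held 11 G in 22 bases, with 3 such runs and a longest run of 4. miR-24-2-5p held 5 G in 22 bases and no run. Other miRNAs with the seeds of the members were miR-23c (seed UCACAUU, as in miR-23a-3p and miR-23b-3p), miR-9985 (UCACAGU, as in miR-27a-3p and miR-27b-3p) and miR-24-1-5p (GCCUACU, as in miR-24-2-5p).

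The Red libraries held 242085 and 277498 miRNA counts and the Ctrl libraries 5874405 and 4678102, so the Red values rest on far fewer reads. Input libraries held between 7097379 and 14874685 counts, and IP libraries between 2854811 and 6452759. In the smaller Red library a count of 0 allows up to 12.4 CPM (3 counts; CPM are counts scaled to the same total in every library), a limit that covers counting error only. miR-21-5p alone took 79.7% ± 1.03 of Ctrl and 26.8% ± 0.147 of Red counts (SD, n = 2 each), and 42.3% ± 3.57 of Input and 5.39% ± 0.774 of IP counts (SD, n = 5 each). Enrichment is therefore given on counts normalised by medians of ratios, which take the typical miRNA as unchanged, and scaling by total counts raised every log2 enrichment by about 1.11 for BoRed-seq and 0.34 for m7G-RIP-seq. In the latter, replicates 1 to 3 and replicates 4 and 5 stood apart in both groups for several members, and no label explains this, so enrichments within these sets are given beside the pooled ones.

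The members made up 2.22% ± 0.153 of the counts in Ctrl, 1.04% ± 0.141 in Red (SD, n = 2 each), 3.95% ± 1.27 in Input and 2.07% ± 0.672 in IP (SD, n = 5 each). In small RNA libraries a read spans the whole mature miRNA, so levels of members are compared as CPM without a length correction. In Input, miR-27b-3p was highest with 24748 ± 9030 CPM (SD, n = 5), and miR-24-3p was next with 6452 ± 785. miR-23b-3p with 3173 ± 1396, miR-23a-3p with 2020 ± 1103 and miR-27a-3p with 1963 ± 574 overlapped in their ranges. All 5p arms were lower. miR-27b-5p with 485.3 ± 59.6 and miR-27a-5p with 397.0 ± 77.5 overlapped, and miR-23b-5p with 164.4 ± 38.5, miR-24-2-5p with 46.7 ± 5.72 and miR-23a-5p with 19.0 ± 10.2 followed without overlapping their neighbours. In Ctrl the 3p arms again lay above all 5p arms, from miR-27b-3p with 14502 ± 2127 to miR-23a-5p with 3.93 ± 0.495 CPM (SD, n = 2).

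The 3p arms together held 97.9% ± 0.0400 of the members' counts in Ctrl and 91.8% ± 1.50 in Red (SD, n = 2 each). They held 96.9% ± 0.982 in Input and 86.0% ± 4.87 in IP (SD, n = 5 each). miR-27b-3p alone was 62.0% ± 2.87 of the members' counts in Input and 42.3% ± 7.03 in IP. miR-23b-5p, which was 0.459% ± 0.201 of them in Input, was 7.61% ± 2.18 in IP.

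**Figure D1:**
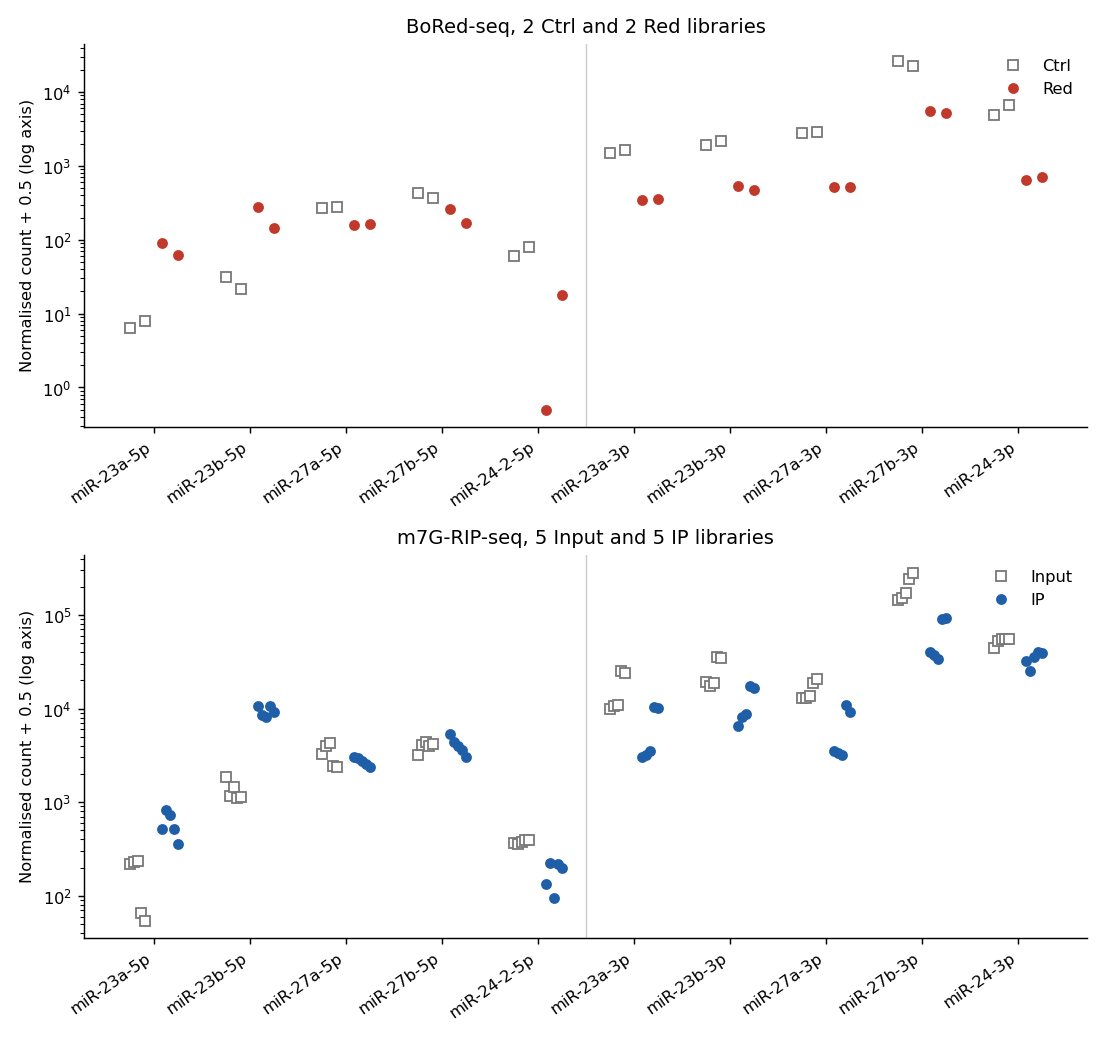
Normalised counts (plus 0.5, log axis) of the 10 members in every library, 5p arms left and 3p arms right of the grey line; upper panel Ctrl (open squares) and Red (red circles), lower panel Input (open squares) and IP (blue circles), libraries in order of replicate number. miR-23a-5p and miR-23b-5p lay above their controls in both panels, and every 3p arm had a lower mean in the pulldown than in its control.

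The BoRed-seq comparison asks which members the reduction and biotin pulldown recovers more, or less, than the typical miRNA. miR-23a-5p and miR-23b-5p were enriched 11.3-fold and 7.98-fold, while all 5 of the 3p arms were depleted between 4.08-fold and 8.71-fold. Of the other 5p arms, miR-24-2-5p and miR-27b-5p were depleted, and miR-27a-5p did not pass the test. All 10 members passed the count filter. miR-24-2-5p passed it through Ctrl alone, with 217 and 216 raw counts there and 0 and 7 in Red. Its call as depleted is therefore not independent of that filter. The 2 enriched members stand beside 32.2% enriched among the 400 miRNAs with an adjusted p, and the 7 depleted members beside 27.2% depleted. The members had a median log2 enrichment of −2.09 against −0.09 over all miRNAs tested. The sizes were less stable than the calls of these 2 enriched members and of the 3p arms, which were made in all 12 alternatives. Without 1 library the log2 enrichment ranged from 2.55 to 3.90 for miR-23a-5p, lowest without Ctrl replicate 1, and from 2.16 to 3.55 for miR-23b-5p, lowest without Ctrl replicate 2. Leaving out Ctrl replicate 1 also gave −4.11 for miR-24-3p, −3.25 for miR-27a-3p, −3.01 for miR-23a-3p, −2.90 for miR-23b-3p and −2.85 for miR-27b-3p, and leaving out Ctrl replicate 2 gave −2.86 for miR-27b-3p.

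miR-23a-5p, the passenger arm of the miR-23a hairpin, had normalised counts of 5.81 and 7.44 in Ctrl and 88.9 and 61.2 in Red. Both Red libraries lay above both Ctrl libraries, although the raw counts were small (21 and 20 in Ctrl, 24 and 25 in Red). With 2 libraries against 2, a full separation in either direction has a permutation p of 0.333, so it carries little weight alone. The share of all miRNAs with separate groups is not given, so separation is only described, here and below. The log2 enrichment of miR-23a-5p was 3.50 ± 0.62 (SE; DESeq2 Wald test, adjusted p 8.48e-08), rank 58 of 400. miR-23b-5p, the passenger arm of the other miR-23 hairpin, had 31.0 and 20.8 in Ctrl and 274.1 and 144.4 in Red. Its groups did not overlap either, and its log2 enrichment was 3.00 ± 0.48 (SE; adjusted p 2.17e-09), rank 80 of 400.

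miR-27a-5p had 267.1 and 274.8 normalised counts in Ctrl and 159.2 and 161.5 in Red. The Red libraries lay below both controls, but the log2 enrichment of −0.76 ± 0.36 (SE) gave an adjusted p of 0.0553. It was called depleted in 7 of 12 alternatives, with adjusted p from 0.000502 to 0.0260, among them those without Ctrl replicate 1 (log2 −1.56) and without Ctrl replicate 2 (log2 −1.33), and not in the other 5. miR-27b-5p had 428.4 and 365.1 in Ctrl and 259.2 and 168.9 in Red, a log2 enrichment of −0.90 ± 0.36 (SE; adjusted p 0.0237). Without 1 Red library the adjusted p was 0.146 (Red replicate 1 left out, log2 −0.86) and 0.453 (Red replicate 2 left out, log2 −0.47), but such a fit has 1 Red library, which is assumed to vary like the controls. Without Ctrl replicate 1 or Ctrl replicate 2 the log2 enrichment of miR-27b-5p was −1.56 and −1.60. Relative to total counts, the values of miR-27a-5p and miR-27b-5p had the opposite sign, 0.37 and 0.19, and neither passed the test. miR-24-2-5p, the 5p arm of MIR24-2, had 60.1 and 80.3 normalised counts in Ctrl and 0 and 17.1 in Red, from 7 raw counts in Red replicate 2. Its log2 enrichment of −2.86 ± 0.85 (SE; adjusted p 0.00175) was −1.65 with an adjusted p of 0.107 without Red replicate 1, and −1.67 with an adjusted p of 0.125 relative to total counts. Without Red replicate 2 it was −6.54 (adjusted p 0.00713), a fitted value against 0 counts and no measure of size.

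miR-24-3p, the guide arm shared by both clusters, had 4920 and 6774 normalised counts in Ctrl and 637.0 and 704.8 in Red. This was the lowest log2 enrichment among the members, −3.12 ± 0.30 (SE), with an adjusted p of 4.28e-24. miR-27b-3p, the most abundant member, had 26019 and 22609 in Ctrl and 5625 and 5151 in Red, and its log2 enrichment was −2.17 ± 0.26 (SE; adjusted p 1.56e-15). miR-27a-3p had 2784 and 2868 against 522.2 and 511.5 normalised counts. miR-23a-3p had 1493 and 1652 against 344.4 and 359.7. miR-23b-3p had 1915 and 2174 against 533.3 and 469.8. Their log2 enrichments were −2.45, −2.16 and −2.03, and in each case both Red libraries lay below both Ctrl libraries. The whole group of 5 ranked between 323 and 367 of the 400 miRNAs ordered from the highest log2 enrichment.

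**Figure D2:**
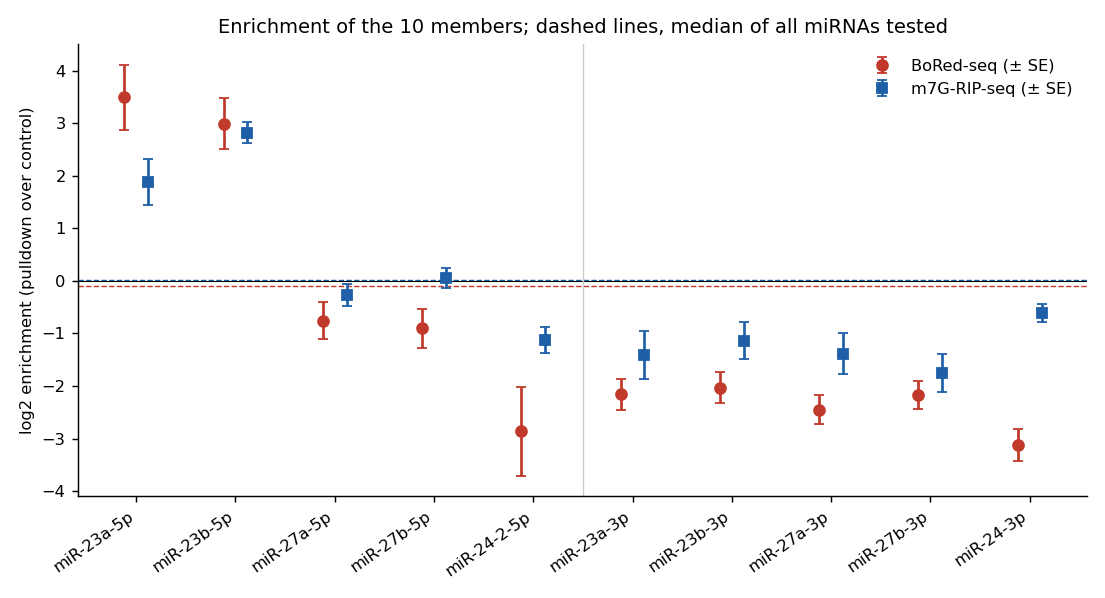
log2 enrichment of each member in BoRed-seq (red circles, Red over Ctrl) and m7G-RIP-seq (blue squares, IP over Input) with SE bars; dashed lines mark the median over all miRNAs tested in each assay. miR-23a-5p and miR-23b-5p lay between 1.88 and 3.50 in both assays, and the 5 3p arms lay between −3.12 and −0.61.

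In m7G-RIP-seq the comparison asks the same of the antibody. miR-23b-5p rose 7.07-fold and miR-23a-5p 3.69-fold, and again all 5 of the 3p arms were depleted, from 1.52-fold for miR-24-3p to 3.36-fold for miR-27b-3p. miR-24-2-5p was depleted 2.18-fold, and miR-27a-5p and miR-27b-5p did not pass the test. The 2 enriched members stand beside 27.3% enriched among the 670 miRNAs tested, and the 6 depleted members beside 29.9% depleted. The members had a median log2 enrichment of −0.87 against 0.02 over all miRNAs tested.

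miR-23b-5p had normalised counts of 1844, 1167, 1437, 1120 and 1132 in Input replicates 1 to 5, and 10741, 8456, 8126, 10768 and 9266 in the IP replicates of the same numbers. Every IP library lay above every Input library, and the log2 enrichment was 2.82 ± 0.20 (SE; adjusted p 1.00e-44), rank 28 of 670. Within replicates 1 to 3 it was 2.59 and within replicates 4 and 5 it was 3.07. miR-23a-5p had 215.9, 226.1, 234.6, 65.3 and 53.3 in Input and 515.7, 814.6, 731.2, 518.8 and 352.8 in IP. The groups did not overlap, although Input replicates 4 and 5 were far below the other Input libraries. Its log2 enrichment was 1.88 ± 0.45 (SE; adjusted p 7.22e-05), 1.59 within replicates 1 to 3 and 2.80 within replicates 4 and 5.

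miR-27a-5p had 3260, 3998, 4281, 2463 and 2386 normalised counts in Input and 3028, 2957, 2771, 2526 and 2359 in IP. The groups overlapped, and the log2 enrichment of −0.26 ± 0.21 (SE) gave an adjusted p of 0.286. It was −0.42 with an adjusted p of 0.00592 within replicates 1 to 3 and −0.07 with an adjusted p of 0.676 within replicates 4 and 5. miR-27b-5p had 3193, 4059, 4350, 3999 and 4163 in Input and 5377, 4431, 4006, 3570 and 3073 in IP. These groups overlapped as well, with a log2 enrichment of 0.05 ± 0.19 (SE; adjusted p 0.842). Its sign depended on the set, 0.23 (adjusted p 0.217) within replicates 1 to 3 and −0.38 (adjusted p 0.0105) within replicates 4 and 5. miR-24-2-5p had 366.2, 357.0, 376.0, 397.8 and 396.1 in Input and 131.9, 222.7, 94.8, 215.8 and 199.2 in IP. All IP libraries lay below all Input libraries, and the log2 enrichment was −1.12 ± 0.25 (SE; adjusted p 2.74e-05), with −1.30 within replicates 1 to 3 and −1.02 within replicates 4 and 5.

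miR-27b-3p had 145158, 150709, 171409, 242834 and 283310 normalised counts in Input and 40095, 37783, 34250, 90417 and 93437 in IP. The groups did not overlap, and replicates 4 and 5 were the highest in both. Its log2 enrichment was −1.75 ± 0.36 (SE; adjusted p 4.29e-06), with −2.08 within replicates 1 to 3 and −1.60 within replicates 4 and 5. miR-23a-3p had 9897, 10547, 10880, 24885 and 23918 in Input and 3012, 3166, 3549, 10338 and 10147 in IP. Here IP replicates 4 and 5 reached the level of Input replicates 1 to 3, so the groups overlapped, and the log2 enrichment was −1.41 ± 0.45 (SE; adjusted p 0.00438). Within replicates 1 to 3 and within replicates 4 and 5 its groups did not overlap, and the log2 enrichments were −1.71 and −1.34.

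miR-23b-3p had 19414, 17460, 18579, 35978 and 35003 normalised counts in Input and 6501, 8197, 8712, 17445 and 16644 in IP. miR-27a-3p had 13053, 12922, 13619, 18880 and 20476 in Input and 3540, 3340, 3199, 10826 and 9279 in IP. All IP libraries of these miRNAs lay below all Input libraries, with log2 enrichments of −1.14 ± 0.35 and −1.39 ± 0.39 (SE) and adjusted p of 0.00318 and 9.23e-04. For miR-23b-3p the log2 enrichment was −1.27 within replicates 1 to 3 and −1.14 within replicates 4 and 5. For miR-27a-3p it was −2.0 and −1.05. miR-24-3p had 44542, 53057, 54848, 54803 and 54995 in Input and 32019, 25083, 35158, 40127 and 39611 in IP. It was the least depleted 3p arm, with a log2 enrichment of −0.61 ± 0.17 (SE; adjusted p 0.00101). Within replicates 1 to 3 it was −0.75 and within replicates 4 and 5 it was −0.55. Relative to total counts it was −0.27 with an adjusted p of 0.182.

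The spread between the replicate sets differed between the members. A test of the difference between the log2 enrichment in replicates 4 and 5 and that in replicates 1 to 3 passed for miR-23a-5p (1.28 ± 0.38, SE, adjusted p 0.00545), miR-27a-3p (1.00 ± 0.16, adjusted p 4.17e-09), miR-27b-3p (0.54 ± 0.17, adjusted p 0.0105) and miR-23a-3p (0.44 ± 0.15, adjusted p 0.0200), all by DESeq2. Over all miRNAs, 131 of 488 passed this test. The Input level itself moved with the set. The mean level of miR-23a-3p was 1221 CPM in Input replicates 1 to 3 and 3218 in replicates 4 and 5, a ratio of 2.63, whereas miR-23a-5p went from 26.4 to 7.84. For the 8 members called in the pooled comparison, the direction of the enrichment was the same in both sets. Neither miR-27a-5p nor miR-27b-5p was called in the pooled comparison. Within sets, miR-27a-5p was called depleted in replicates 1 to 3 and miR-27b-5p in replicates 4 and 5.

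**Figure D3:**
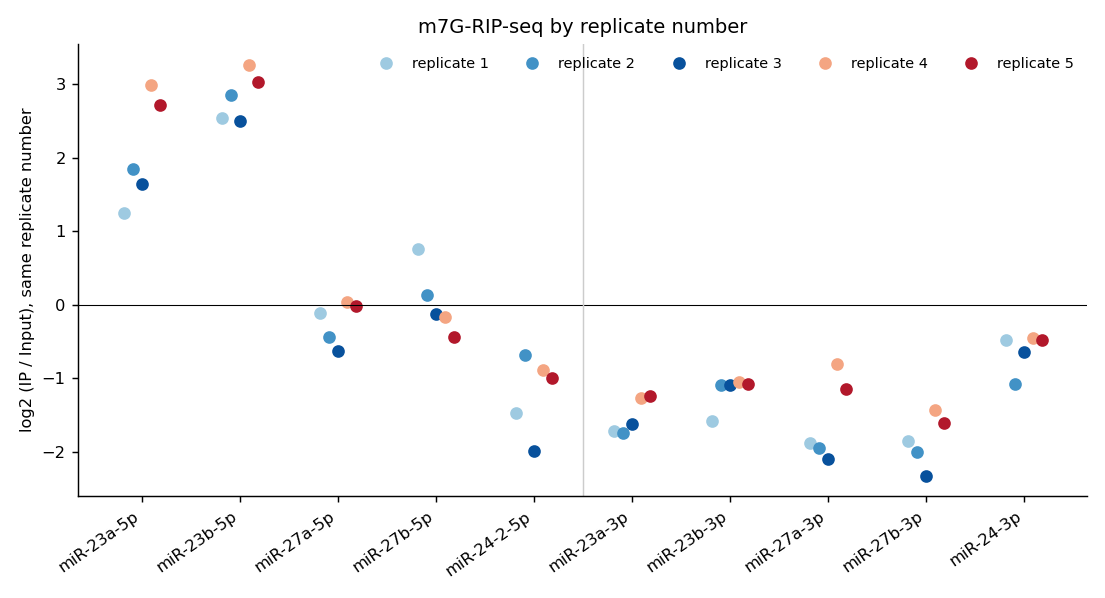
log2 of the normalised IP count over the Input count of the same replicate number for the 10 members in m7G-RIP-seq; blue points are replicates 1 to 3, orange and red points replicates 4 and 5. The 5 points of miR-23a-5p, miR-23b-5p and of each 3p arm stay on 1 side of 0, and for miR-27a-3p replicates 4 and 5 lie at −0.80 and −1.14 while replicates 1 to 3 lie between −2.09 and −1.88.

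Within a hairpin, both arms come from the same precursor and are read in the same library, so the share of the 5p arm among the counts of both arms does not depend on how libraries are scaled. In 4 of the 5 hairpins, all but that of miR-24, the 5p arm was more enriched than the 3p arm in both assays. The test of the log2 ratio of the arms (limma, adjusted over all arm pairs) called the 5p arm higher for 20.2% of the 119 pairs in BoRed-seq and for 28.0% of the 175 pairs in m7G-RIP-seq. The median difference of the 5 member pairs was 1.70 in BoRed-seq, against −0.03 over all pairs, and 1.87 in m7G-RIP-seq, against 0.30 over all pairs. Ordered from the highest difference, the pairs of miR-23a, miR-23b, miR-27a, miR-27b and miR-24 ranked 4, 8, 28, 34 and 72 of 119 in BoRed-seq. In m7G-RIP-seq they ranked 18, 13, 55, 45 and 116 of 175.

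In the miR-23a hairpin, the 5p arm made up 0.388% and 0.448% of the counts of both arms in Ctrl and 20.5% and 14.5% in Red. The 95% Wilson intervals in Red were 14.2% to 28.7% and 10.0% to 20.6%. The log2 ratio of the arms thus differed by 5.63 ± 0.45 (SE, limma, adjusted p 0.00207), rank 4 of 119 pairs. In m7G-RIP-seq the share was 2.13%, 2.10%, 2.11%, 0.262% and 0.222% in Input replicates 1 to 5 and 14.6%, 20.5%, 17.1%, 4.78% and 3.36% in IP. Both groups were lower in replicates 4 and 5, yet every IP library lay above every Input library. The difference was 3.60 ± 0.86 (SE, limma, adjusted p 0.00488), with a two-sided exact permutation p of 0.00794, the smallest that 5 libraries against 5 allow.

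In the miR-23b hairpin, the 5p share was 1.59% and 0.949% in Ctrl and 33.9% and 23.5% in Red, a difference of 4.99 ± 0.43 in the log2 ratio (SE, limma, adjusted p 0.00207). In Input it was 8.67%, 6.27%, 7.18%, 3.02% and 3.13%, and in IP it was 62.3%, 50.8%, 48.3%, 38.2% and 35.8%. The usual passenger arm thus outnumbered the guide arm in IP replicates 1 and 2, which no Input library showed. The difference was 4.01 ± 0.40 (SE, limma, adjusted p 1.82e-05, exact permutation p 0.00794).

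In the miR-27 hairpins the same direction came with smaller differences. The share of miR-27a-5p was 8.75% and 8.74% in Ctrl and 23.4% and 24.0% in Red, a difference of 1.70 ± 0.18 in the log2 ratio (SE, limma, adjusted p 0.00343). In Input it was 20.0%, 23.6%, 23.9%, 11.5% and 10.4%, and in IP 46.1%, 47.0%, 46.4%, 18.9% and 20.3%. The pooled groups overlapped, while those within replicates 1 to 3 and within replicates 4 and 5 did not. The pooled difference was 1.34 ± 0.49 (SE, limma, adjusted p 0.0440, exact permutation p 0.0714), and it was 1.59 (adjusted p 5.39e-05) within replicates 1 to 3 and 0.98 (adjusted p 0.00113) within replicates 4 and 5. The pooled call was lost when 1 library was left out, with an adjusted p of 0.0652 without Input replicate 1, 0.103 without Input replicate 4, 0.105 without Input replicate 5, 0.0926 without IP replicate 1, 0.0923 without IP replicate 2 and 0.102 without IP replicate 3. With the replicate number as a block the adjusted p was 0.000490.

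The share of miR-27b-5p was 1.62% and 1.59% in Ctrl and 4.41% and 3.17% in Red, a difference of 1.26 ± 0.23 (SE, limma, adjusted p 0.0181). In Input it was 2.15%, 2.62%, 2.48%, 1.62% and 1.45%, and in IP 11.8%, 10.5%, 10.5%, 3.80% and 3.18%. No IP library overlapped an Input library, and the difference was 1.87 ± 0.43 (SE, limma, adjusted p 0.00405, exact permutation p 0.00794). With 2 libraries against 2, no permutation test of the BoRed-seq ratios can go below 0.333.

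miR-24 was the exception. The share of miR-24-2-5p was 1.21% and 1.17% in Ctrl and 0% and 2.37% in Red, where the 2 libraries lay on either side of the controls and the 95% Wilson intervals reached 2.18% and 4.82%. The difference was −0.47, from 2 Red libraries that disagreed and held few counts of miR-24-2-5p. It had a 95% interval of −3.44 to 2.50 (limma, adjusted p 0.785), so within these limits it could have either sign. It was 1.11 (adjusted p 0.0979) without Red replicate 1 and −2.06 (adjusted p 0.0393) without Red replicate 2. The latter compares 1 Red library with 0 counts of miR-24-2-5p, so its size is set by the pseudocount, and both take the spread from the other libraries. In Input the share was 0.815%, 0.668%, 0.681%, 0.721% and 0.715%, and in IP 0.410%, 0.880%, 0.269%, 0.535% and 0.50%. IP replicate 2 lay above all Input libraries and the other IP libraries lay below them. The difference was −0.57 (95% interval −1.20 to 0.06, limma, adjusted p 0.118, exact permutation p 0.0556), and −0.79 with an adjusted p of 0.0170 without IP replicate 2. Because miR-24-3p also comes from MIR24-1, this pair does not compare the arms of 1 hairpin alone.

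**Figure D4:**
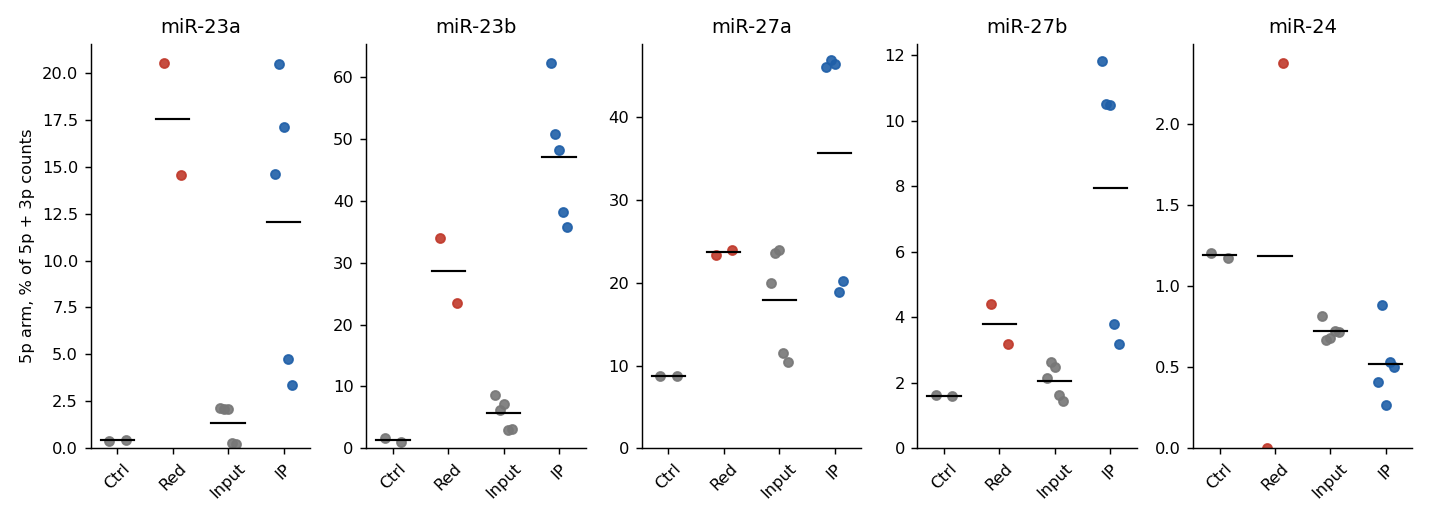
Share of the 5p arm among the counts of both arms (percent) for each hairpin in every library of Ctrl, Red, Input and IP; points are libraries, black lines group means, and each panel has its own axis from 0. The miR-23b panel rises from 5.65% in Input to 47.1% in IP on average, and the miR-24 panel stays below 3% in every library.

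For none of the 4 pairs of a and b paralogs (miR-23 5p, miR-23 3p, miR-27 5p and miR-27 3p) was a difference in enrichment called in either assay, while 33.3% of 36 such pairs among all miRNAs were called in BoRed-seq and 23.8% of 42 in m7G-RIP-seq. At an unadjusted p under 0.05, limma gave 0 of the 4 pairs for BoRed-seq and 1 for m7G-RIP-seq, that of miR-27a-3p and miR-27b-3p. Both shares above rest on adjusted p, and none is given at this unadjusted threshold, so these counts are only described. A missed threshold does not show equality, so the 95% intervals are given. For miR-23a-5p minus miR-23b-5p the difference in log2 enrichment was 0.51 (interval −0.92 to 1.95) for BoRed-seq and −0.75 (interval −1.80 to 0.30) for m7G-RIP-seq. With the replicate number as a block the latter was called, with an adjusted p of 0.0329, and it was the only one of the 4 pairs called in that fit. The share of all paralog pairs called in that fit is not given.

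For the 3p arms the intervals were narrower. miR-23a-3p minus miR-23b-3p differed by −0.13 (interval −0.51 to 0.25) in BoRed-seq and by −0.34 (interval −0.68 to 0.01) in m7G-RIP-seq. miR-27a-3p minus miR-27b-3p differed by −0.28 (interval −0.67 to 0.12) in BoRed-seq and by 0.27 (interval 0.05 to 0.48, adjusted p 0.0843) in m7G-RIP-seq. miR-27a-5p minus miR-27b-5p differed by 0.17 (interval −0.82 to 1.15) and −0.26 (interval −0.69 to 0.17). The miR-27 5p pair went opposite ways in the replicate sets, −0.64 within replicates 1 to 3 (adjusted p 0.00635) and 0.31 within replicates 4 and 5 (adjusted p 0.0460), and was called in each. Also called within a set were miR-23a-3p minus miR-23b-3p, −0.44 within replicates 1 to 3 (adjusted p 0.0294) and −0.19 within replicates 4 and 5 (adjusted p 0.0144), and miR-27a-3p minus miR-27b-3p, 0.54 within replicates 4 and 5 (adjusted p 0.0460). How large a share of all paralog pairs was called within a set is not given, so these calls are only described. The 3p paralogs differ by so few bases that a read with an error or a trimmed end can be counted for the other paralog or for both, and the extent of this is not known from the tables.

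The share of the a paralog among the counts of a pair can be read directly. miR-23a-3p was 43.5% ± 0.436 of miR-23a-3p and miR-23b-3p in Ctrl and 41.3% ± 2.91 in Red (SD, n = 2 each), 38.0% ± 2.93 in Input and 32.7% ± 4.63 in IP (SD, n = 5 each). miR-27a-3p was only 10.5% ± 1.13 of its pair in Ctrl, 8.76% ± 0.380 in Red, 7.49% ± 0.591 in Input and 8.90% ± 1.07 in IP. miR-23a-5p was the minor 5p arm of its pair, with 21.1% ± 7.44 in Ctrl, 27.1% ± 3.73 in Red, 10.1% ± 5.14 in Input and 5.98% ± 2.36 in IP. miR-27a-5p was closer to its paralog, with 40.7% ± 3.21, 43.5% ± 7.66, 44.9% ± 6.96 and 40.4% ± 2.73.

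Between the assays, the log2 enrichments of a member differed past the threshold for miR-24-3p alone, which was lower in BoRed-seq by 2.51 ± 0.35 (SE, z test, adjusted p 8.03e-12 over 384 miRNAs). Such a difference was called for 38.0% of those 384 miRNAs. That share belongs to this test, and the share in the alternatives below is not given. miR-24-3p kept this call in all 21 alternatives, with differences from −3.51 (without Ctrl replicate 1) to −1.71 (total counts). The count of members was less stable, from 1 to 5 over the alternatives, and was 3 with the replicate number as a block, where miR-27a-3p (−0.88, adjusted p 0.0368) and miR-23b-3p (−0.85, adjusted p 0.0199) were added. miR-23b-5p differed by 0.17 ± 0.52 (SE; adjusted p 0.826) and miR-23a-5p by 1.61 ± 0.77 (SE; adjusted p 0.0801). The assays differ in chemistry, depth and number of replicates, and what part of the difference in miR-24-3p each of these makes was not tested.

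The rule for the members used no sequence feature, so G content can be set beside the enrichment as a description. Over the 10 members, Pearson's r between the percentage of G in the mature sequence and the log2 enrichment was 0.73 for BoRed-seq and 0.71 for m7G-RIP-seq (Spearman's rho 0.52 and 0.73). Members with equal G content could still differ widely. miR-23b-5p, miR-27b-5p and miR-24-3p each held 31.8% G. Their log2 enrichments were 3.00, −0.90 and −3.12 in BoRed-seq and 2.82, 0.05 and −0.61 in m7G-RIP-seq. The highest G content, 50%, was that of miR-23a-5p. Over the 355 of 400 and 602 of 670 miRNAs tested that had a RefSeq sequence it was 0.41 and 0.43 (rho 0.38 and 0.45). The miRNAs share libraries and a scaling, and family members share sequence. In the arms of a hairpin, the 5p arm was richer in G by 31.0 percentage points for miR-23a, 14.4 for miR-23b, 12.6 for miR-27a and 8.01 for miR-27b, while the difference was −9.09 points for miR-24. The arm differences in BoRed-seq, 5.63, 4.99, 1.70, 1.26 and −0.47, had the same order, and those in m7G-RIP-seq had miR-23b ahead of miR-23a and miR-27b ahead of miR-27a.

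Across all arm pairs with both sequences, the difference in G content and the difference in log2 enrichment had Pearson's r of 0.48 (rho 0.44, 105 pairs) for BoRed-seq and 0.47 (rho 0.50, 157 pairs) for m7G-RIP-seq. The motif GGG, searched on the strand of the mature miRNA, was present in miR-23a-5p, miR-23b-5p, miR-27a-5p, miR-23a-3p and miR-23b-3p, and in 33.2% of 2370 mature miRNAs in the RefSeq table. Both miR-23 3p arms hold it and were depleted in both assays, and miR-27a-5p holds it and was called in neither. Over all miRNAs tested with a sequence, 46.5% of the 114 with GGG were enriched in BoRed-seq and 15.8% depleted, against 25.3% and 29.9% of the 241 without it. In m7G-RIP-seq 44.3% of the 212 with GGG were enriched and 18.4% depleted, against 19.7% and 35.1% of the 390 without it. The G score of the mature sequence, which averages over windows of 20 bases a value up to 4 for each G by the length of its run, and the negative of it for C, was 1.85 for miR-23a-5p and between −0.20 and 0.55 for the other 9 members. Neither the G content nor a match marks a methylated base.

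**Figure D5:**
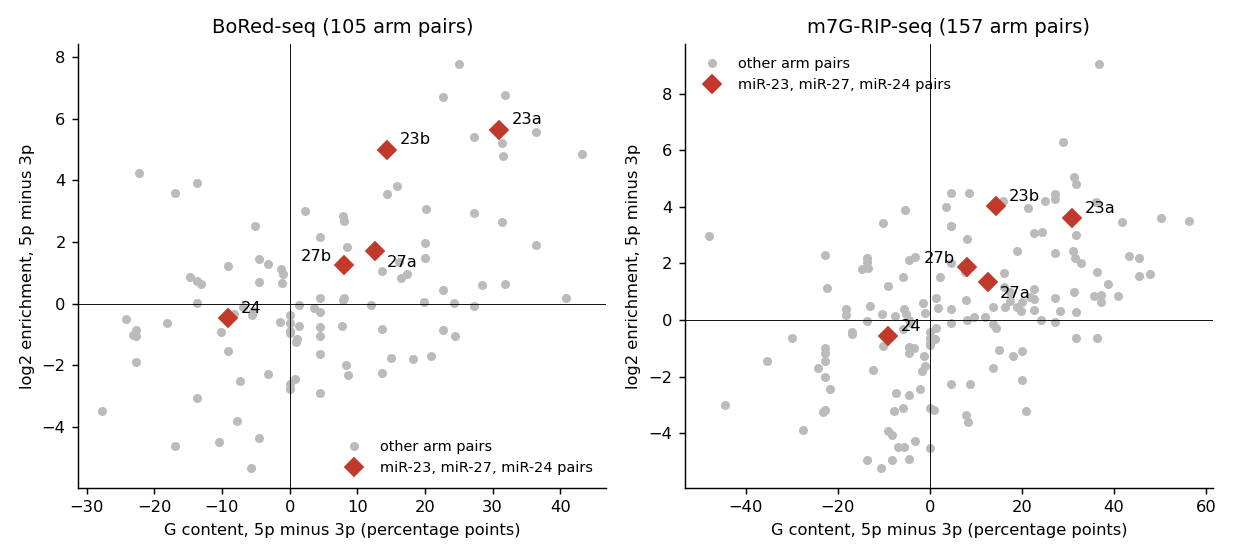
Difference in log2 enrichment between the 5p and the 3p arm against their difference in G content (percentage points) for the 105 arm pairs of BoRed-seq and the 157 of m7G-RIP-seq with both sequences; red diamonds are the 5 pairs of the miR-23, miR-27 and miR-24 hairpins. miR-24, at −9.09 points, is the only member pair left of and below 0 in both panels.

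Related entries were few. miR-24-1-5p, the 5p arm of MIR24-1 with the seed of miR-24-2-5p, had 0 counts in all 14 libraries, as had miR-3074-5p. miR-3074-3p, from a hairpin on the other strand of the MIR24-1 locus, had counts in all 14 libraries. It was enriched in BoRed-seq, with 14.1 and 19.0 normalised counts in Ctrl, 85.2 and 68.5 in Red and a log2 enrichment of 2.21 ± 0.57 (SE; adjusted p 2.51e-04), while m7G-RIP-seq gave it 0.41 ± 0.26 on the log2 scale (SE; adjusted p 0.167). Whether reads were counted by strand is not given in the sources used here, so reads of the overlapping entries at this locus cannot be told apart with certainty. miR-23c, with the seed of the miR-23 3p arms, had at most 34 counts in any library, too few to test in BoRed-seq, and its m7G-RIP-seq log2 enrichment was 0.06 ± 0.91 (SE; adjusted p 0.962). miR-128-3p, whose sequence near the seed resembles that of the miR-27 3p arms, was depleted in BoRed-seq (log2 −0.82 ± 0.28, SE, adjusted p 0.00603), and its m7G-RIP-seq value was 0.47 ± 0.23 (SE; adjusted p 0.0703).

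The miRNA whose normalised counts over the 10 m7G-RIP-seq libraries were most like those of a member, among 303 non-members with a mean of at least 100, was chosen by Pearson's r of log2 values. It was let-7c-5p for miR-23b-5p (r = 0.99), let-7b-3p for miR-23a-5p (0.97), miR-494-3p for miR-23a-3p (0.99), miR-107 for miR-23b-3p (0.99), miR-34c-5p for miR-27a-3p (0.98) and miR-221-3p for miR-27b-3p (0.98). It was miR-339-3p for miR-24-2-5p (0.98), miR-409-5p for miR-24-3p (0.96), miR-99b-3p for miR-27a-5p (0.91) and miR-744-5p for miR-27b-5p (0.82). These r hold the difference between IP and Input and between the replicate sets, and each is the highest of many, so they describe the libraries only.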

How the data were processed

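Mature miRNAs were counted in 14 small RNA libraries of A549 cells (Ctrl 2, Red 2, Input 5, IP 5), grouped by their labels. The deposited values were raw counts per mature miRNA, 1 table per assay. Per the study's methods, the authors trimmed adaptors with Trimmomatic, aligned reads end to end to GRCh38/hg38 with STAR, keeping reads that fit several loci up to a limit, and counted them over miRBase 22 with featureCounts; the submitters' processing notes name Bowtie2 as aligner. How featureCounts treated strand and reads with several loci is not given in the sources used here. Counts of miR-24-3p, which has 2 loci, were even in 10 of 14 libraries, so they were not halved.

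Enrichment was tested with DESeq2 1.42.0 (R 4.3.3; Wald test, median-of-ratios factors, no covariate) on miRNAs with at least 10 counts in 2 (BoRed-seq) or 5 (m7G-RIP-seq) libraries, 453 and 670 miRNAs, of which 400 and 670 received an adjusted p. Log2 enrichments are pulldown over control, not shrunken. Adjusted p are Benjamini-Hochberg values over all miRNAs or pairs tested, with calls under 0.05. Arm and paralog ratios (pseudocount 0.5) were tested with limma 3.58.1, with exact permutation tests for m7G-RIP-seq, and assays by a z test on standard errors. edgeR 4.0.16, other scalings, filters, replicate sets and leaving out each library were alternatives. Scripts were run on simulated counts, with the same excess spread for every miRNA and no split between replicate sets. That run checks the code and not the calls made on these data. Intervals are 95% and cover counting error where Wilson; the libraries have no molecular identifiers in these tables.

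Replicates of a group always differed beyond sampling noise (chi-square of 10.4 or more per degree of freedom), so none was merged. In m7G-RIP-seq, same-numbered IP and Input libraries deviated together (correlations 0.130 to 0.361 over all miRNAs). The replicate number therefore served as a block in an alternative fit. However, IP replicate 3 correlated best with Input replicate 1, and IP replicate 4 with Input replicate 5, so the numbers may not mark true pairs. These correlations also hold the split between replicates 1 to 3 and 4 and 5. The names given are the 10 members, 5 related entries, and the most alike miRNA per member. The members and lists were chosen with earlier results of these data known.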

Additional observations from a re-analysis of the deposited data

Results flagged for a closer look

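The log2 enrichment in m7G-RIP-seq differed between replicates 4 and 5 and replicates 1 to 3, by the interaction test of DESeq2, for 4 members. Among all miRNAs with an adjusted p in that test, 131 of 488 passed, so such a difference was not particular to the members. The difference was 1.28 for miR-23a-5p, 1.00 for miR-27a-3p, 0.54 for miR-27b-3p and 0.44 for miR-23a-3p. The labels name no batch, and the cause was not tested.

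In 1 of 30 groups of 5 libraries examined, a library stood apart by Dixon's criterion. The Input counts of miR-24-3p had a gap of 0.815 of their range between Input replicate 1, with 44542 normalised counts, and the nearest library, with 53057. Chance alone marks about 1 in 20 such groups.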

How the results depend on the processing

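The 2 enriched members of each assay were called under every alternative run (12 in BoRed-seq, 20 in m7G-RIP-seq). Depleted members ranged from 5 to 8 in BoRed-seq (without 1 library, 5 to 7) and from 5 to 7 in m7G-RIP-seq, and arm pairs called from 4 to 5 and from 3 to 5. Paralog pairs called stayed at 0 in BoRed-seq. In m7G-RIP-seq they numbered 1 with the replicate block, 2 in replicates 1 to 3 and 3 in replicates 4 and 5, and 0 without any 1 library. Members that differed between the assays numbered 5 by an interaction term in 1 fit, 2 with total counts, 3 with TMM, 4 with 10 counts in every library, 3 with the replicate block, 4 in either replicate set, and 1 to 5 without 1 library. The replicate block changed no other count of calls. In BoRed-seq, whose 2 same-numbered pairs correlated at 0.106, it changed none. The share of all miRNAs or pairs called in each alternative is not given, so these counts show only how far the calls moved.

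The following values changed sign. With total counts, miR-27a-5p was 0.37 and miR-27b-5p 0.19 in BoRed-seq and miR-27a-5p 0.097 in m7G-RIP-seq. miR-27b-5p in m7G-RIP-seq was −0.32 with total counts less miR-21-5p, −0.38 in replicates 4 and 5, and −0.074 to 0.17 without 1 library. The miR-24 arm difference in BoRed-seq was 0.066 with a pseudocount of 1, 0.26 by a z test, and −2.06 to 1.11 without 1 library. The difference of miR-27a-5p and miR-27b-5p was −0.15 to 0.48 without 1 library in BoRed-seq and 0.31 in replicates 4 and 5 of m7G-RIP-seq. Between assays, miR-23b-5p was −0.27 by the interaction, −0.033 with TMM, −0.060 with 10 counts in every library, −0.074 against replicates 4 and 5, and −0.66 to 0.72 without 1 library; with total counts miR-27a-5p was 0.28, miR-23a-3p 0.097 and miR-27b-3p 0.38. The cause of these changes was not tested. Depth limits Red, where miR-24-2-5p had 0 and 7 counts. Halved counts of miR-24-3p were not run, and normalised counts gave the same order of member levels in Input and Ctrl as CPM.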
